A study of Ostreococcus tauri with 30 samples.

Results

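The lower copper samples taken at 12 h were compared with the lower copper samples taken at 4 h. They were chosen by their labels and make up 6 of the 30 libraries of the study, with 3 libraries at each time. The study measured polyadenylated RNA in liquid cultures of Ostreococcus tauri strain RCC745 after addition of copper at either of a pair of levels, with untreated controls beside them. The lower copper groups had grown for 12 h or 4 h after the addition. The control groups set beside them, also 3 libraries each, had received no copper and were taken at 12 h and 4 h. All of these cultures were grown to exponential phase in artificial seawater under days of 12 h light and 12 h dark, and they share strain, medium and light regime. The sample labels give the lower level as 25 µM and the treatment protocol gives 0.4 µM, so no dose is attached to a result. The sources used here do not give the clock time of the copper addition. The change within lower copper holds both the hours of exposure and the passing of the day, which cannot be told apart without the controls.

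Ostreococcus tauri is a marine green alga and one of the smallest free-living eukaryotes known, with a single chloroplast and a single mitochondrion in each cell. Copper is a cofactor of proteins such as plastocyanin of the photosynthetic electron chain and cytochrome c oxidase of the respiratory chain, whereas an excess of it generates reactive oxygen species and displaces other metals from proteins. Many transcripts of O. tauri follow the light-dark cycle, with photosynthesis, nitrogen assimilation, DNA replication and cell division each tied to a part of the day.

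The lower copper libraries held 3812374, 4133262 and 3928369 gene counts at 12 h, and 3992005, 5042408 and 3425807 at 4 h. A count was found for 7238 to 7515 genes per library at 12 h and for 7401 to 7467 at 4 h. Gene levels are given as CPM, that is counts relative to a common library total after scaling by edgeR's TMM method, and module levels as CPM of module counts. A KEGG module is a named set of gene families that form a pathway or a complex, and modules can share families and therefore reads. Since RNA was taken from whole cultures, fewer cells with a transcript and less of the transcript per cell cannot be told apart.

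The 3 libraries of lower copper at 12 h stood far apart from one another, and every result below rests on them. On the first principal component of log2 CPM over all 30 libraries, which held 41% of the variance, replicates 1, 2 and 3 scored 62.3, 13.7 and -31.8 at 12 h, and 22.9, 22.5 and -12 at 4 h. Replicate 1 at 12 h had the highest score of the 30 libraries. The mean gene length weighted by counts was 3158, 2795 and 2405 bp at 12 h, and 2755, 2910 and 2705 bp at 4 h, so the 12 h replicates also spread in the length of the genes that took their counts. Averaged over the groups the lengths were 2786 bp at 12 h and 2790 bp at 4 h under lower copper, and 2742 bp at 12 h and 2651 bp at 4 h in controls. The median over genes of the SD of log2 CPM was 0.384 in lower copper at 12 h and 0.216 in lower copper at 4 h, against 0.246 in controls at 12 h and 0.173 in controls at 4 h. Whether RNA quality or library preparation takes part in this spread was not tested.

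**Figure D1:**
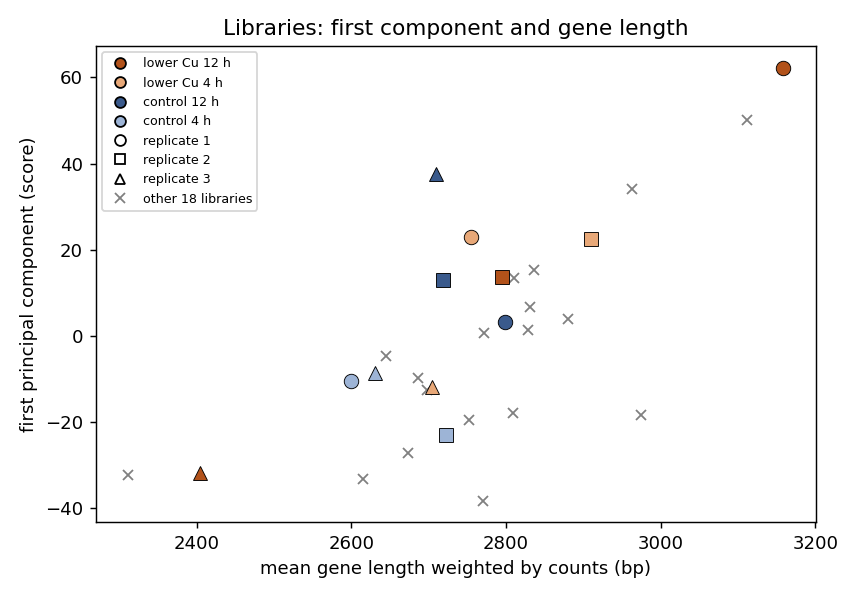
The first principal component score of each library (vertical axis) against its mean gene length weighted by counts in bp (horizontal axis), with colours for the 4 groups, shapes for the replicates and crosses for the other 18 libraries. Lower copper at 12 h holds both the library with the highest score, replicate 1 at 62.3 with 3158 bp, and one at the opposite side, replicate 3 at -31.8 with 2405 bp.

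The first question was which genes differed at 12 h from 4 h under lower copper. By edgeR's quasi-likelihood test 4 genes fell and 0 rose among 7190 tested, which is 0.0556% of the genes, at an adjusted p under 0.05. None of the 4 has a functional description in the sources used here, so they are named by locus tag, and all 4 are given because they are so few. OT_ostta02g04110 and OT_ostta10g01500 follow from the naming rule, and the other two were added after their values were seen. At an unadjusted p under 0.05 209 genes were higher (2.91%) and 220 lower (3.06%), together 5.97% of those tested. DESeq2 on the same counts called 12 rises and 22 falls. It gave no adjusted p for 3207 of the 7190 genes, so its adjustment covered fewer genes than edgeR's. The 3 and 3 libraries did not overlap in 236 genes that were higher at 12 h (3.28%) and in 301 that were lower (4.19%).

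OT_ostta02g04110, on chromosome 2, showed the largest fall. It had 6.25, 4.82 and 5.53 CPM in lower copper at 12 h, from 19, 18 and 23 reads, against 14.5, 15.2 and 12.6 CPM in lower copper at 4 h, from 54, 69 and 45 reads. Every 12 h library was below every 4 h library, and the log2 fold change was -1.35 ± 0.24 (SE, n = 3 each, adjusted p = 0.0207). Controls had 8.05, 4.02 and 8.18 CPM at 12 h, against 7.39, 6.02 and 11.2 CPM at 4 h. The control groups overlapped, with a log2 fold change of -0.23 ± 0.25 (adjusted p = 0.709). The difference between both changes, lower copper minus control, was -1.12 ± 0.35 on the log2 scale with a 95% interval of -1.83 to -0.41, and its unadjusted p of 0.0033 gave an adjusted p of 0.904 over all genes. The gene's fall can therefore not be said to differ from the control change. Across 1, 4 and 12 h of lower copper its means were 12.7 ± 1.83, 14.1 ± 1.37 and 5.53 ± 0.72 CPM (SD, n = 3 each).

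OT_ostta10g01500, on chromosome 10, had 29.6, 32.1 and 35.8 CPM in lower copper at 12 h, against 50.1, 55.5 and 56.6 CPM in lower copper at 4 h. The groups did not overlap, and the log2 fold change was -0.73 ± 0.13 (adjusted p = 0.0207). Controls also separated, with 38.4, 31.7 and 33.6 CPM at 12 h, against 54.6, 43.9 and 51.3 CPM at 4 h. Their log2 fold change of -0.53 ± 0.13 did not pass the test (adjusted p = 0.104). The lower copper change minus the control change was -0.20 ± 0.19, with a 95% interval of -0.59 to 0.18.

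OT_ostta04g00640, on chromosome 4, fell in both series. It had 44.8, 47.4 and 59.1 CPM in lower copper at 12 h, against 82.7, 81.5 and 84.0 CPM in lower copper at 4 h, a log2 fold change of -0.71 ± 0.12 (adjusted p = 0.0141). In controls it had 40.2, 48.2 and 45.2 CPM at 12 h, against 66.0, 71.5 and 69.2 CPM at 4 h, a log2 fold change of -0.63 ± 0.12 (adjusted p = 0.0277). Neither series had overlapping groups, and the lower copper change minus the control change was -0.08 ± 0.17 with a 95% interval of -0.42 to 0.26. Of the genes called in one of the series or in both, it is the only one called in both.

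OT_ostta06g01870, on chromosome 6, was the most abundant of the 4. It had 164.9, 168.8 and 158.3 CPM in lower copper at 12 h, against 246.6, 242.8 and 229.9 CPM in lower copper at 4 h, without overlap (log2 fold change -0.55 ± 0.11, adjusted p = 0.0472). Controls had 151.4, 171.9 and 174.9 CPM at 12 h, against 228.8, 224.2 and 213.4 CPM at 4 h, also without overlap (log2 fold change -0.42 ± 0.11, adjusted p = 0.108). The lower copper change minus the control change was -0.13 ± 0.15 with a 95% interval of -0.44 to 0.18.

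The rise with the smallest p was that of OT_ostta12g02870, on chromosome 12, which was picked for this after its values were seen and did not pass the test. It had 99.4, 81.3 and 74.2 CPM in lower copper at 12 h, against 54.4, 53.3 and 43.2 CPM in lower copper at 4 h, a log2 fold change of 0.75 ± 0.16 (adjusted p = 0.0895). Controls had 63.2, 87.1 and 85.5 CPM at 12 h, against 53.4, 53.2 and 44.7 CPM at 4 h, a log2 fold change of 0.64 ± 0.16 (adjusted p = 0.104). In both series all 12 h libraries were above all 4 h libraries. The gene passed with DESeq2, where its adjusted p was 0.00239.

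**Figure D2:**
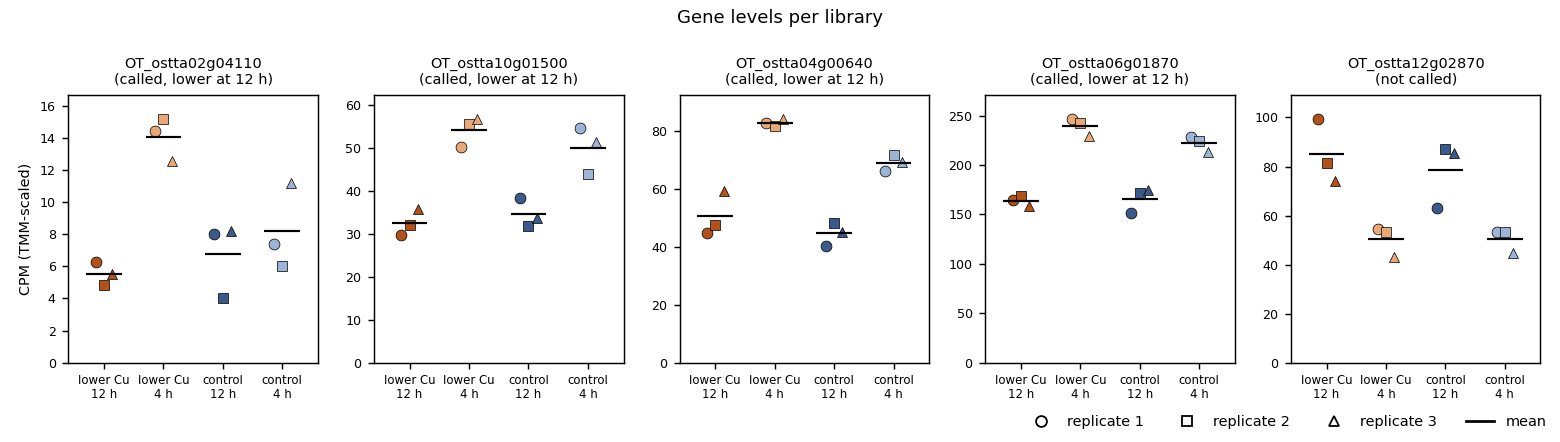
Levels in CPM (vertical axes, from 0) of the 4 genes called lower and of OT_ostta12g02870, which was not called, in each library of lower copper 12 h, lower copper 4 h, control 12 h and control 4 h, with bars at the mean of 3. The control points run with the lower copper points in 4 of the 5 genes, while for OT_ostta02g04110 the control groups overlap.

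The 4 calls depended on single libraries. When replicate 2 at 12 h was left out the count of called genes was 0 by edgeR, with 4.9% of genes at an unadjusted p under 0.05. The count was likewise 0 when replicate 1, 2 or 3 at 4 h was left out, with 4.54%, 4.39% and 5.98%. When replicate 3 at 12 h was left out there were 2 calls, both among the 4, and with replicate 1 at 12 h left out there was 1, a rise of a gene outside the 4. In these fits the share of genes at an unadjusted p under 0.05 was higher, 9.5% in the one lacking replicate 3 and 11.6% in the one lacking replicate 1. The log2 fold changes of the 4 genes stayed negative in each of these fits, for OT_ostta02g04110 between -1.45 and -1.25. A fit of the 6 lower copper libraries alone called 0 genes, with 2.24% at an unadjusted p under 0.05.

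Most genes had small estimated changes, with intervals that rest on a spread shared by all groups. The log2 fold changes of 12 h over 4 h under lower copper had a median of 0.04 and an interquartile range of 0.318, with the 1st and 99th percentiles at -0.69 and 1.01. The median SE was 0.23. For 5593 genes, 77.8% of those tested, the 95% interval lay within a 2-fold change both ways. These intervals may be too narrow, since lower copper at 12 h varied more than the other groups compared. Its median SD of log2 CPM was 0.384, against 0.216 in lower copper at 4 h. With only the 6 lower copper libraries fitted, the SE of OT_ostta04g00640 was 0.17 instead of 0.12. A log2 fold change of at least 1 was estimated for 75 genes (1.04%) and one of at most -1 for 27 (0.376%), and OT_ostta02g04110 is the only called gene among these. By chromosome, the median log2 fold change lay between 0.00 on chromosome 19, with 55 genes, and 0.11 on chromosome 20, with 85 genes.

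The control change over the same hours was the second question. At 12 h against 4 h in controls, 2 genes rose (0.0278%) and 9 fell (0.125%) by edgeR's test, together 0.153% of the genes tested. At an unadjusted p under 0.05 were 5.97% of the genes under lower copper and 14.3%, or 1028 genes, in controls. The size of this contrast moved with single libraries. Without lower copper 12 h replicate 1 the shares were 11.6% under lower copper and 17.4% in controls. They were 9.5% and 16.9% without lower copper 12 h replicate 3, and 5.87% and 7.74% without control 12 h replicate 3. In each of these fits the control share was the higher one. The control groups did not overlap in 934 genes that were higher at 12 h (13%) and in 1067 that were lower (14.8%). The interquartile range of the log2 fold changes was 0.318 under lower copper and 0.529 in controls. A log2 fold change of at most -1 was estimated for 0.376% of the genes under lower copper and 4.1% in controls, and one of at least 1 for 1.04% under lower copper and 0.278% in controls. Without any one library of controls at 12 h the count of control calls was 0, with 559 to 1029 genes at an unadjusted p under 0.05, and DESeq2 called 72 with all libraries. It was also 0 without control 4 h replicate 1 or 2, and 1 without control 4 h replicate 3. Control libraries 1 h replicate 3 and 4 h replicate 3 have labels in doubt, and the count was 1 with both left out and 4 with their labels exchanged. Lower copper libraries entered through the shared estimate of the spread. With replicate 1, 2 or 3 at 12 h of lower copper left out the control count was 24, 7 and 18, and with replicate 1 or 2 at 4 h of lower copper left out it was 6 and 5.

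Most of the 11 genes called in controls leaned the same way under lower copper without passing the test there. Of the 9 control falls, 8 had a log2 fold change below 0 under lower copper, and both control rises had one above 0. OT_ostta04g02890 was the exception. It had 1.65, 1.34 and 2.88 CPM in lower copper at 12 h, against 1.87, 1.98 and 0.84 CPM in lower copper at 4 h, which overlap (log2 fold change 0.32 ± 0.52). Controls had 0.62, 0.40 and 0.30 CPM at 12 h, against 3.57, 4.51 and 3.49 CPM at 4 h (log2 fold change -3.04 ± 0.63, adjusted p = 0.0472). The lower copper change minus the control change was 3.36 ± 0.84, and its adjusted p over all genes was 0.904, with few reads behind each value. Of the control rises, OT_ostta14g01730 had the larger one, with log2 fold changes of 0.51 ± 0.22 (adjusted p = 0.811) under lower copper and 1.16 ± 0.24 (adjusted p = 0.0437) in controls. These genes were picked by their control values, so their values under lower copper are a description. Among the 8 falls counted under lower copper, OT_ostta07g00490 had a log2 fold change of only -0.09 ± 0.12. Over all genes tested 58.3% had the same sign in both series. That share was 40.5% without lower copper 12 h replicate 1 and 76.2% without replicate 3.

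Whether the change between 4 h and 12 h differed between lower copper and controls was tested gene by gene as an interaction. By edgeR's test the count of called genes was 0 of 7190, or 0%, with a smallest adjusted p of 0.904, and DESeq2 also called 0. At an unadjusted p under 0.05 were 4.06% of the genes, of which 215 (2.99%) had the higher change under lower copper and 77 (1.07%) the lower one. This share was 16% when replicate 1 of lower copper at 12 h was left out, 1.54% when replicate 3 was and 6.74% when replicate 3 of lower copper at 4 h was, with 0 genes called each time. Among the controls it was 2.46% when 12 h replicate 3 was left out and 2.69% when 4 h replicate 2 was. It was 2.64% when replicate 2 of lower copper at 4 h was left out. The median SE of a difference was 0.32 on the log2 scale, and for 3995 genes, 55.6%, its 95% interval lay within 2-fold both ways. These intervals rest on the same shared spread. For the remaining genes a difference of 2-fold was not detectable or not bounded at this depth and replication.

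Across genes the changes under lower copper and in controls were only loosely alike, and their likeness turned on single 12 h libraries. The changes come from different libraries, so the relation is given as a description across 7190 genes, which are not independent. Spearman's rho was 0.165, and 58.3% of the genes had the same sign. With replicate 1 of lower copper at 12 h left out the rho was -0.239 and 40.5% of signs were shared, and with replicate 3 left out it was 0.657 and 76.2% were shared. It was 0.066 with replicate 2 at 12 h left out and -0.085 with replicate 3 of lower copper at 4 h left out. The changes also differed in their relation to gene length, with a rho across genes of 0.05 under lower copper and 0.36 in controls. With a count-weighted gene length covariate, added after seeing the data, the rho between the changes was 0.344 and 63.1% of signs were shared. Beyond this fit the part of gene length in the relation was not tested.

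**Figure D3:**
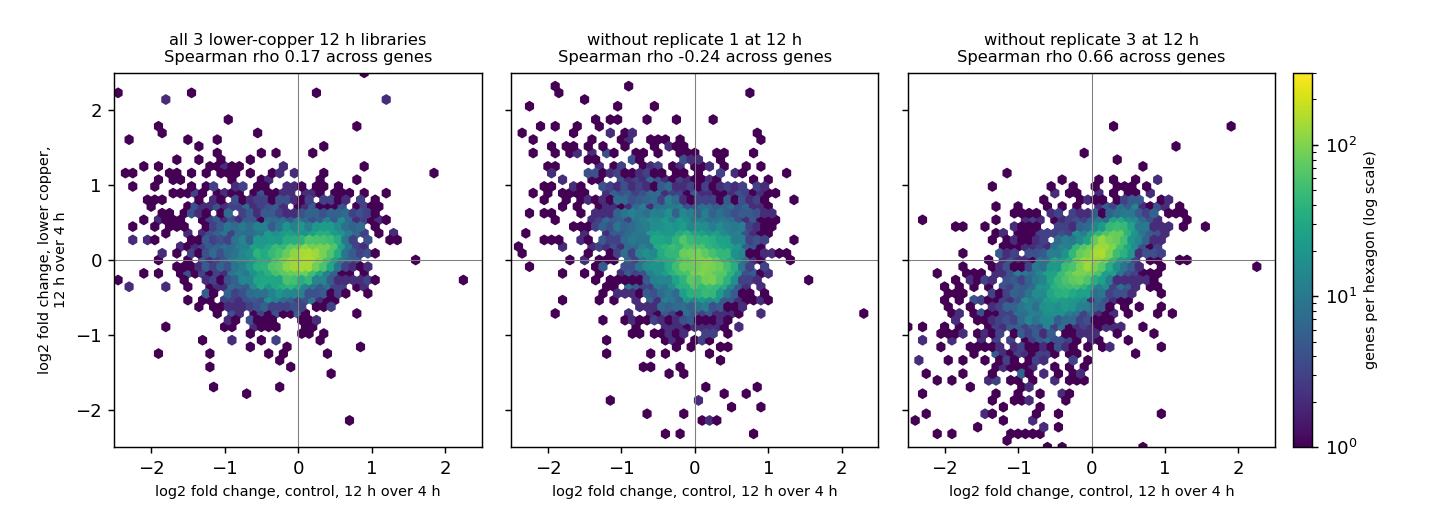
The log2 fold change of 12 h over 4 h per gene under lower copper (vertical axes) and in controls (horizontal axes) with all libraries, without lower copper 12 h replicate 1 and without replicate 3, where colour gives the genes per hexagon on a log scale. The cloud leans upward in the third panel, with a rho of 0.657, and downward in the second, with -0.239, and 22 genes of the first panel lie beyond the axes.

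Modules gave the view by function. By edgeR's test 0 of 236 modules, or 0%, were called between 12 h and 4 h under lower copper, with a smallest adjusted p of 0.0931. At an unadjusted p under 0.05 there were 14 modules, 5.93%, of which 7 (2.97%) were higher and 7 (2.97%) lower at 12 h, and DESeq2 called 1. With replicate 3 at 12 h left out edgeR called 2 modules, the urea cycle and a competence-related DNA transporter. In controls edgeR called 0 modules with 25 (10.6%) at an unadjusted p under 0.05 and DESeq2 called 5, and edgeR called 1 with control 12 h replicate 1 left out. For the difference between the changes both tools called 0 with 4 modules (1.69%) at an unadjusted p under 0.05. For 196 modules, 83.1%, the 95% interval of the change under lower copper, which rests on the shared spread, lay within 2-fold both ways. The groups did not overlap in 12 modules that were higher at 12 h (5.08%) and in 11 that were lower (4.66%). Of the 14 modules, 11 had the same sign in controls, against 65.3% of all 236 modules. The share over all modules was 47% without lower copper 12 h replicate 1 and 78.4% without replicate 3. Their changes under lower copper had a median of -0.01, with about as many modules above 0 as below.

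**Figure D4:**
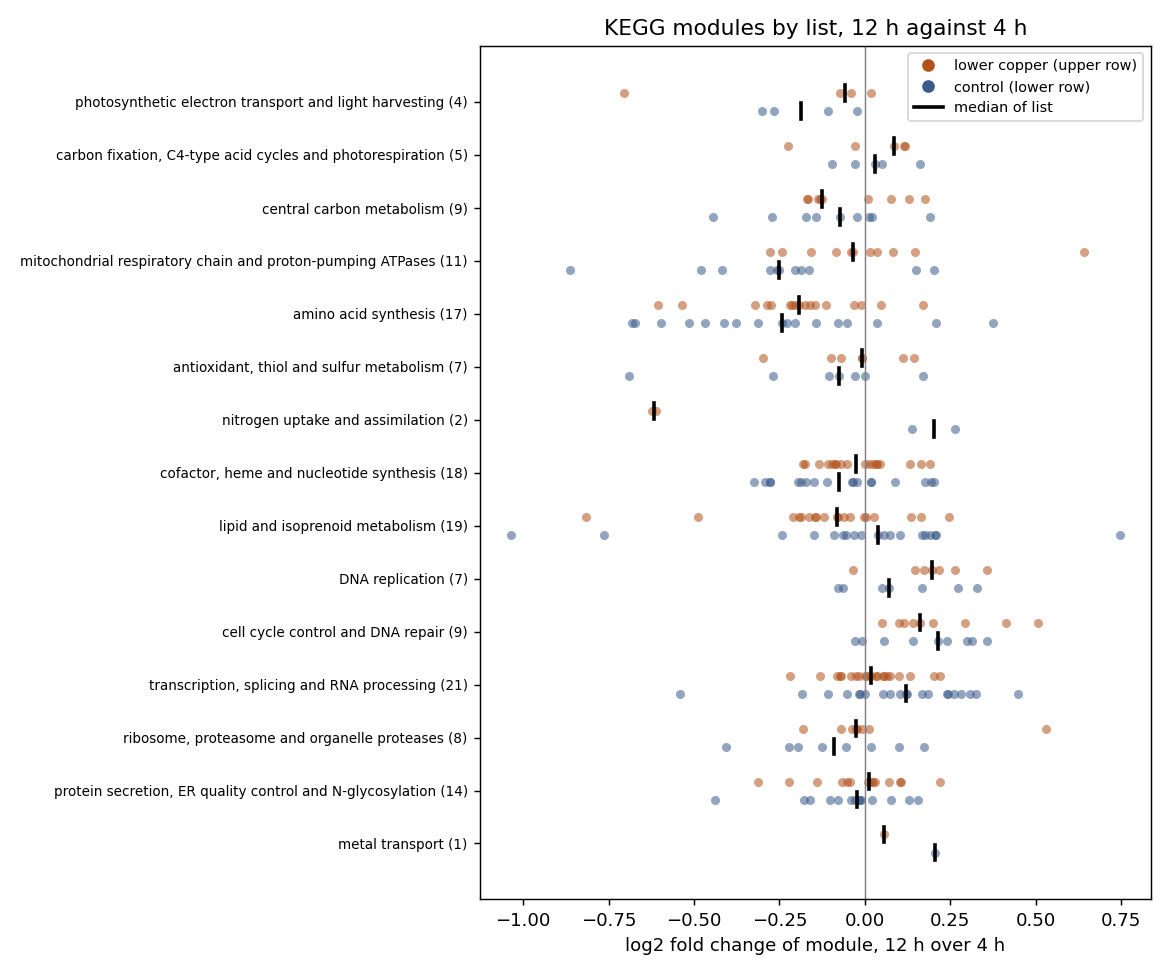
The log2 fold change of 12 h over 4 h (horizontal axis) of each module in 15 lists by function, with lower copper above and control below in each row, black bars at the list's median and the number of modules in brackets. Under lower copper all 9 modules of cell cycle control and DNA repair lie above 0 and 15 of 17 amino acid synthesis modules lie below 0. These lists are named for their one-sided signs, while over all 236 modules about as many lie above 0 as below. Without lower copper 12 h replicate 1 the counts were 6 of 9 and 11 of 17. No module passed the test.

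Amino acid synthesis held 17 modules, of which 0 rose and 0 fell by the test (3 with an unadjusted p under 0.05, all lower, and 0 called by DESeq2). Under lower copper 15 lay below 0 and 2 above, with a median log2 fold change of -0.19, against -0.01 over all 236 modules, and in controls 14 lay below 0 with a median of -0.24. DESeq2's size factors left 14 below 0. With replicate 1 at 12 h left out 11 lay below 0 with a median of -0.02, and with replicate 3 at 4 h left out 10 did with a median of -0.06. Phenylalanine synthesis, the branch from chorismate to an aromatic amino acid, averaged 123.4 ± 17.7 CPM in lower copper at 12 h, against 178.7 ± 21.5 CPM in lower copper at 4 h (SD, n = 3 each). These groups did not overlap, and the log2 fold change was -0.53 ± 0.16 (adjusted p = 0.177), beside -0.60 ± 0.16 (adjusted p = 0.0863) in controls. Methionine synthesis from aspartate had 9178, 9157 and 8160 CPM in lower copper at 12 h, against 10290, 10610 and 11150 CPM at 4 h, a log2 fold change of -0.27 ± 0.08 (adjusted p = 0.177), beside -0.23 ± 0.08 in controls.

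Tyrosine synthesis, the sister branch from chorismate, had 477.2, 607 and 609.5 CPM in lower copper at 12 h, against 688.3, 685.3 and 690.7 CPM in lower copper at 4 h, with all 12 h libraries lower. Its log2 fold change was -0.29 ± 0.10 (adjusted p = 0.315), beside 0.03 ± 0.10 in controls, and the difference of -0.32 ± 0.15 had an unadjusted p of 0.0381 and an adjusted p of 0.997. Replicate 1 was the low library at 12 h, and when it was left out the change under lower copper was -0.14 (adjusted p = 0.599). Lysine synthesis by the succinyl pathway had 660.5, 1300 and 2040 CPM at 12 h, against 1283, 1318 and 1867 CPM at 4 h, so replicate 1 was the low library at 12 h and the groups overlapped.

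The urea cycle, which links arginine and urea and stood in no list, had the smallest p of all modules. It had 994.4, 1134 and 1285 CPM in lower copper at 12 h, against 1495, 1473 and 1616 CPM in lower copper at 4 h. The groups did not overlap, and the log2 fold change was -0.43 ± 0.10 with a 95% interval of -0.64 to -0.21 (edgeR's adjusted p = 0.0931). Controls had 1228, 1168 and 1101 CPM at 12 h, against 1545, 1404 and 1457 CPM at 4 h, a log2 fold change of -0.33 ± 0.10 (adjusted p = 0.14). The module was the one DESeq2 called, with an adjusted p of 0.0412, and edgeR called it without lower copper 12 h replicate 3 (adjusted p = 0.021), but without replicate 1 its adjusted p was 0.294.

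Nitrogen uptake and assimilation held 2 modules, and neither rose or fell by the test. Assimilatory nitrate reduction, the enzymes that turn nitrate into ammonia, had 16540, 2573 and 2602 CPM in lower copper at 12 h, against 7590, 7676 and 17900 CPM in lower copper at 4 h. Replicate 1 was 6.36-fold above replicate 3 at 12 h, and the high library at 4 h was replicate 3, so the groups overlapped. The log2 fold change of -0.61 ± 0.80 therefore fixes no direction. Controls showed one high library as well, with 1443, 16420 and 1682 CPM at 12 h, against 5365, 5191 and 7216 CPM at 4 h. At 1 h of lower copper the module had 7863, 10680 and 20100 CPM. The wider nitrate assimilation module, which shares reads with it, had 12930, 2191 and 1910 CPM in lower copper at 12 h, against 6383, 5817 and 14020 CPM at 4 h (log2 fold change -0.62 ± 0.77). In both modules the same libraries were high. The median of the pair was -2.07 when replicate 1 at 12 h was left out and -0.06 when replicate 3 at 4 h was.

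The DNA replication list held 7 modules, 6 of them above 0, with a median log2 fold change of 0.20 under lower copper and 0.07 in controls, and 0 passed edgeR's or DESeq2's test (2 at an unadjusted p under 0.05). Its median was 0.13 when replicate 2 at 12 h was left out and 0.31 when replicate 3 was, and 5 of the 7 were above 0 when replicate 1 was. The RPA complex, which coats single-stranded DNA during replication and repair, had 2899, 3192 and 2762 CPM in lower copper at 12 h, against 2499, 2490 and 2385 CPM in lower copper at 4 h. All 12 h libraries were higher, with a log2 fold change of 0.26 ± 0.08 (adjusted p = 0.178), beside 0.17 ± 0.08 (adjusted p = 0.471) in controls. The DNA polymerase delta complex, a replicative polymerase, had 1848, 1576 and 1309 CPM at 12 h, against 1359, 1348 and 985.3 CPM at 4 h, which overlap (log2 fold change 0.36 ± 0.14, adjusted p = 0.488, beside 0.33 ± 0.14 in controls).

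Cell cycle control and DNA repair held 9 modules, all above 0 under lower copper with a median of 0.16, and 7 above 0 in controls with a median of 0.21. With replicate 1 at 12 h left out 6 of the 9 were above 0, with a median of 0.06, and with replicate 3 at 12 h left out all 9 were, with a median of 0.33. None of the 9 passed edgeR's or DESeq2's test, and 1 had an unadjusted p under 0.05. That one, the DNA-PK complex of double-strand break joining, had 1717, 1467 and 860.5 CPM in lower copper at 12 h, against 1004, 1077 and 958.1 CPM in lower copper at 4 h. Replicate 3 at 12 h was below every 4 h library, and the log2 fold change was 0.41 ± 0.19 (adjusted p = 0.758), which was 0.25 when replicate 1 at 12 h was left out and 0.65 when replicate 3 was. The DNA damage checkpoint module had 2171, 1891 and 1197 CPM at 12 h, against 1340, 1649 and 1300 CPM at 4 h, again with replicate 3 as the low library (log2 fold change 0.29 ± 0.19). The median spread of the 9 modules between replicates, as the coefficient of variation, was 25.6% at 12 h and 7.29% at 4 h.

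Photosynthetic electron transport and light harvesting held 4 modules, with a median log2 fold change of -0.06 under lower copper and -0.19 in controls and 0 at an unadjusted p under 0.05. The sign of the lower copper median turned with single 12 h libraries, to 0.06 when replicate 1 was left out, beside -0.16 when replicate 3 was. Photosystem I had 5213, 6356 and 6677 CPM in lower copper at 12 h, against 5987, 5592 and 6436 CPM at 4 h (log2 fold change 0.02 ± 0.12). Photosystem II had 480.1, 604.7 and 507.7 CPM at 12 h, against 1297, 672.2 and 626 CPM at 4 h. Its log2 fold change of -0.70 ± 0.61 came with a single high library, replicate 1 at 4 h. Many photosystem subunits are encoded in the chloroplast, and the libraries were made from polyadenylated RNA.

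Carbon fixation and photorespiration held 5 modules with a median of 0.08 under lower copper and 0.03 in controls. The lower copper median was 0.11 when replicate 1 at 12 h was left out and -0.07 when replicate 3 was. The Calvin cycle had 94150, 165000 and 183900 CPM in lower copper at 12 h, against 132000, 138300 and 139000 CPM at 4 h. Replicate 1 was below and replicates 2 and 3 above all 4 h libraries, and the log2 fold change was 0.11 ± 0.19. Photorespiration, which recycles the product of Rubisco's oxygenase reaction, had 34310, 36690 and 36440 CPM at 12 h, against 30270, 33260 and 35590 CPM at 4 h (log2 fold change 0.12 ± 0.10). Neither passed the test.

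Central carbon metabolism held 9 modules with a median of -0.13 under lower copper and -0.07 in controls. Single libraries turned its direction, with 6 of 9 modules above 0 and a median of 0.06 when replicate 1 at 12 h was left out, and 6 of 9 above 0 and a median of 0.11 when replicate 3 at 4 h was. Glycolysis had 12400, 13040 and 14300 CPM in lower copper at 12 h, against 14200, 13710 and 15840 CPM at 4 h, which overlap (log2 fold change -0.14 ± 0.09, beside -0.14 ± 0.09 in controls). The citrate cycle had 11250, 11570 and 13460 CPM at 12 h, against 10530, 10930 and 11710 CPM at 4 h (log2 fold change 0.13 ± 0.09). The reductive citrate cycle, which stood in no list and whose enzymes largely serve other pathways in an alga, had 44590, 43550 and 37330 CPM at 12 h, against 32050, 37070 and 30670 CPM at 4 h. All its 12 h libraries were higher, with a log2 fold change of 0.33 ± 0.11 (adjusted p = 0.247), beside 0.38 ± 0.11 (adjusted p = 0.132) in controls.

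The respiratory chain and proton-pumping ATPases held 11 modules, with a median log2 fold change of -0.04 under lower copper and -0.25 in controls, where 9 of the 11 lay below 0. Under lower copper 6 lay below 0 and 5 above, and 0 had an unadjusted p under 0.05. The lower copper median was 0.12 when replicate 1 at 12 h was left out and -0.11 when replicate 3 was. Cytochrome c oxidase, which carries copper, had 779, 1121 and 1432 CPM in lower copper at 12 h, against 1134, 1039 and 1121 CPM at 4 h (log2 fold change 0.02 ± 0.18, beside -0.26 in controls). The cytochrome bc1 complex had 74.3, 105.5 and 266.6 CPM at 12 h, against 93.9, 78.7 and 113.4 CPM at 4 h, with replicate 3 as the high library (log2 fold change 0.64 ± 0.36).

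The antioxidant, thiol and sulfur list, which covers defences against metals and oxidants, held 7 modules, of which 0 passed edgeR's or DESeq2's test and 0 had an unadjusted p under 0.05. They had a median of -0.01 under lower copper, which is 0.01 with DESeq2's size factors and 0.06 when replicate 1 at 12 h is left out, and -0.08 in controls. Glutathione synthesis, the source of the thiol from which metal-binding phytochelatins are made, had 572.3, 913.1 and 1116 CPM in lower copper at 12 h, against 835.2, 733.7 and 837.7 CPM at 4 h (log2 fold change 0.11 ± 0.17). Assimilatory sulfate reduction, which supplies sulfide for cysteine, had 1501, 2303 and 2862 CPM at 12 h, against 2232, 2187 and 2719 CPM at 4 h (log2 fold change -0.10 ± 0.17). Ascorbate synthesis by the plant route had 5826, 4921 and 4529 CPM at 12 h, against 5488, 5434 and 4438 CPM at 4 h (log2 fold change -0.01 ± 0.13). In all of these modules the groups overlapped. The only metal transport module, an ABC transport system for iron complexes, had 222.4, 156.9 and 194.5 CPM at 12 h, against 208.7, 144.1 and 199.1 CPM at 4 h (log2 fold change 0.06 ± 0.18), with a change of -0.03 when replicate 1 at 12 h was left out. No module in the table stands for copper transport by its name.

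The 8 modules of ribosome, proteasome and organelle proteases had a median log2 fold change of -0.03 under lower copper and -0.09 in controls, with 0 at an unadjusted p under 0.05. The lower copper median was 0.11 when replicate 1 at 12 h was left out and -0.04 when replicate 3 was. The eukaryotic ribosome had 47770, 69270 and 76940 CPM in lower copper at 12 h, against 68540, 60870 and 65540 CPM at 4 h (log2 fold change -0.01 ± 0.15). Replicate 1 was below and replicates 2 and 3 above all 4 h libraries. The proteasome's 19S regulatory particle, which admits tagged proteins for degradation, had 10140, 8558 and 8827 CPM at 12 h, against 9422, 9481 and 9112 CPM at 4 h (log2 fold change -0.03 ± 0.07). Here replicate 1 was the high library at 12 h, unlike for the ribosome.

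Of 21 transcription, splicing and RNA processing modules 0 passed edgeR's or DESeq2's test, and the median was 0.02 under lower copper and 0.12 in controls, with -0.02 under lower copper when replicate 2 at 12 h was left out and 0.09 when replicate 3 was. The one with an unadjusted p under 0.05 was the TREX complex, which couples transcription to mRNA export. It had 11620, 10410 and 11450 CPM in lower copper at 12 h, against 9563, 9133 and 10060 CPM at 4 h. All 12 h libraries were higher, with a log2 fold change of 0.22 ± 0.09 (adjusted p = 0.488), beside 0.00 ± 0.09 in controls. The 14 modules of protein secretion and N-glycosylation had a median of 0.01 under lower copper, with 8 above 0 and 6 below, and -0.02 in controls. When replicate 1 at 12 h was left out the lower copper median was -0.04, with 10 below 0. By edgeR's test 0 passed, and 1 had an unadjusted p under 0.05. The Sec translocation system had 4165, 3879 and 4025 CPM in lower copper at 12 h, against 4670, 4375 and 5043 CPM at 4 h. All its 12 h libraries were lower, with a log2 fold change of -0.22 ± 0.07 (adjusted p = 0.178), beside -0.16 ± 0.07 in controls, and the change under lower copper was -0.12 when replicate 3 at 4 h was left out.

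Lipid and isoprenoid metabolism held 19 modules, 14 below 0 and 5 above under lower copper, with a median of -0.08, against 0.04 in controls. With replicate 3 at 12 h left out 10 of them lay below 0 and 9 above, and when replicate 1 was left out 15 lay below 0 and 4 above with a median of -0.24. The sterol module, named for cholesterol synthesis from squalene epoxide, had 1721, 1607 and 1629 CPM in lower copper at 12 h, against 1965, 1866 and 1830 CPM at 4 h, with all 12 h libraries lower (log2 fold change -0.19 ± 0.08, adjusted p = 0.488). Cofactor, heme and nucleotide synthesis held 18 modules with log2 fold changes between -0.18 and 0.19 and a median of -0.03, and 0 had an unadjusted p under 0.05. The median was 0.07 when replicate 1 at 12 h was left out, -0.15 when replicate 3 was and 0.10 when replicate 3 at 4 h was.

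The libraries of lower copper at 12 h lay far apart for many modules. Replicates 1 and 3 were the outer ones of this group on the first principal component. Between replicates 1 and 3 at 12 h 40 of 236 modules differed by more than 2-fold, 32 of them higher in replicate 3 and 8 higher in replicate 1, against 13 modules between replicates 1 and 3 at 4 h. Replicate 2 lay between the others in 36 of the 40. These modules were chosen by a wide gap between replicates 1 and 3, which favours such a position. No order of the replicates is therefore read from it. Between group means, a change of 2-fold or more from 4 h to 12 h was estimated for 1 module only. Such means vary less than single libraries, so this count is not set against the 40. The module was named for a competence-related DNA transporter of bacteria. It had 8.57, 7.95 and 20.2 CPM in lower copper at 12 h, against 26.9, 29.1 and 31.8 CPM at 4 h (log2 fold change -1.26 ± 0.39, adjusted p = 0.178). The widest spread was that of coenzyme M synthesis, a module named after a methanogen cofactor, with 80.99, 1204 and 2390 CPM at 12 h, against 552.5, 613.3 and 791.5 CPM at 4 h. Replicate 3 was 29.5-fold above replicate 1 at 12 h, so the log2 fold change of 0.91 ± 0.73 fixes no direction. The modules that were higher in replicate 3 included proline synthesis at 3.31-fold and the bacterial-type ribosome at 2.04-fold, while those higher in replicate 1 included nitrate reduction at 6.36-fold and the Fanconi anaemia core complex of DNA repair at 2.49-fold. The median coefficient of variation over modules was 20.8% in lower copper at 12 h and 11.1% in lower copper at 4 h, against 12.4% in controls at 12 h and 8.92% in controls at 4 h.

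**Figure D5:**
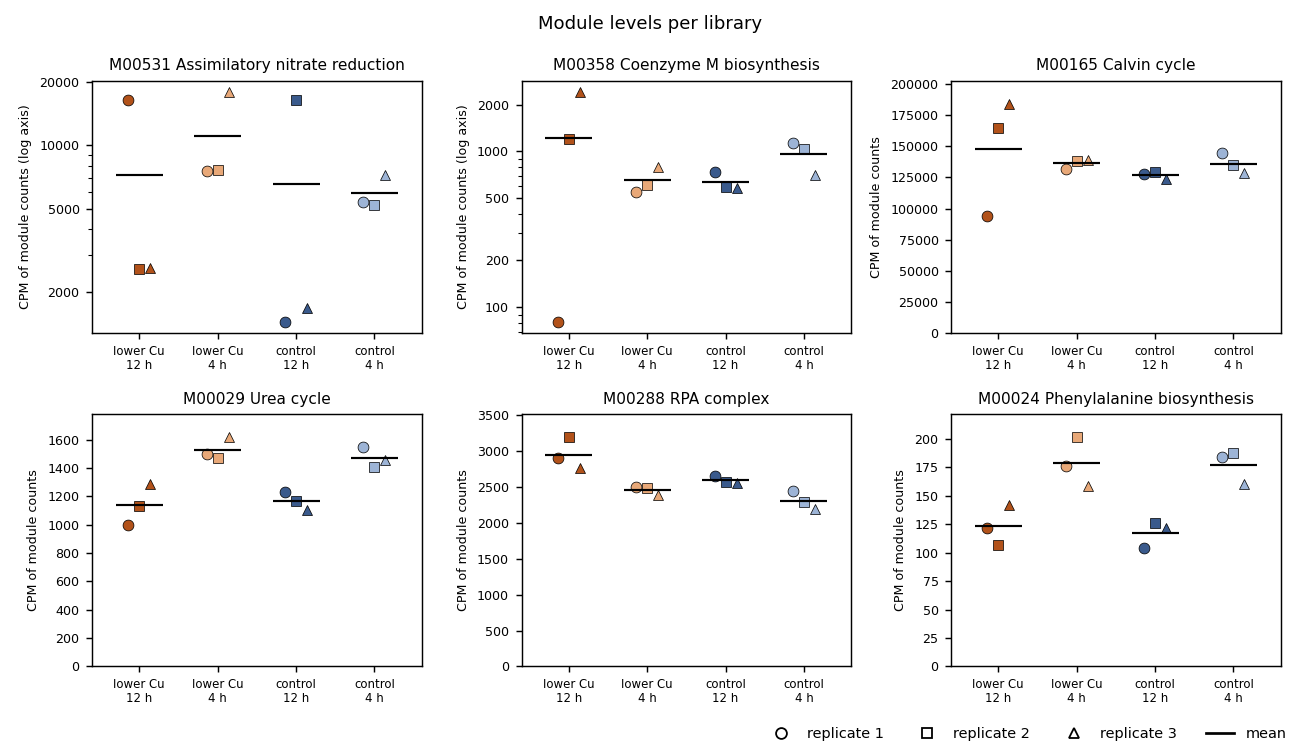
Module levels in CPM of module counts (vertical axes, log axes for nitrate reduction and coenzyme M) in each library of lower copper 12 h, lower copper 4 h, control 12 h and control 4 h, with bars at the mean of 3. Nitrate reduction, coenzyme M and the Calvin cycle spread between the 12 h replicates of lower copper, from 2573 to 16540 CPM for nitrate reduction, while the urea cycle, RPA and phenylalanine synthesis separate 12 h from 4 h in both series.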

How the data were processed

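Per the labels' protocols, libraries were made with a stranded TruSeq mRNA kit and read as single reads of 50 nt. The authors deposited counts of reads per gene, not normalized, for 7627 genes, and a second table of KEGG module counts for them. Per the submitters' processing notes DESeq2 was used. The sources used here name no aligner, counter, strand setting or genome build, so overlapping, antisense and near-identical genes are uncertain. A line with no gene name (1 to 30 counts per library, 0.00038% of all) was left out. The authors' 9 deposited comparison tables were not used. In R 4.3.3 with edgeR 4.0.16, filterByExpr over 10 groups kept 7190 genes (437 removed). TMM factors scaled the libraries, and 1 quasi-likelihood fit of group means over 30 libraries (20 residual degrees of freedom) gave the 3 comparisons, with Benjamini-Hochberg adjustment in each and calls at an adjusted p under 0.05. Modules were fitted alike without a filter. SE is the log2 fold change over the square root of F. Both steps and DESeq2 1.42.0 were tested on simulated data. The simulation gave each gene the same spread in all groups, so it does not cover the wider spread of lower copper at 12 h. The labels do not say that replicates were separate cultures. The p-values therefore set group differences against a spread between libraries that may be only technical.

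Named genes were called, averaged 1 or more in log2 CPM and had groups without overlap, the first 10 with a description and 2 without in each direction. Of the identifiers 7626 matched a RefSeq table of strain RCC4221, with a symbol for 2 tested genes. Modules were placed in 15 lists by name, and 84 fell in none. A module was dropped from a list where its deposited name did not match, among them the urea cycle. The samples, lists and tests were chosen with earlier results of these data known. The alternatives were DESeq2's size factors, DESeq2, another filter, only the groups compared, a replicate block, changed labels of 2 control libraries and each of 12 libraries left out, and a gene length covariate added after seeing the data. Control 1 h replicate 3 and control 4 h replicate 3 have module counts of 6.05 and 20.1 times their gene counts, against 9.89 to 12.2 in the other libraries. The first had 4775093 gene counts and 28915397 module counts, and the second 2622041 and 52579143. Their labels are in doubt and may be exchanged in either the gene counts or the module counts. The control 4 h group would then hold a 1 h library in those counts. Control values are given as deposited.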

Additional observations from a re-analysis of the deposited data

How the results depend on the processing

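With DESeq2 the called genes were 34 under lower copper, 3 of them among edgeR's 4, and 72 in controls, and the called modules were 1 and 5. Under lower copper it gave no adjusted p for 3207 genes, OT_ostta02g04110 among them. With only the compared groups fitted, 0 and 35 genes were called. A count-weighted gene length covariate, chosen after seeing the data, gave 16 and 50 genes, with all 4 and all 11 included, and 1 module under lower copper. The control count was 1 without control replicate 3 at 1 h and 4 h and 4 with their labels exchanged, with 1 control module each. Leaving out 1 of 12 libraries gave 0 to 4 genes and 0 to 2 modules under lower copper, and 0 to 24 genes and 0 to 1 modules in controls. The difference between the changes had 0 genes and 0 modules in every fit run. The 4 called genes, OT_ostta12g02870 and the modules at an unadjusted p under 0.05 kept their direction under lower copper in every fit, whereas medians of module lists near 0 and the correlation with the control change turned sign with single libraries, as given beside them. With group means of log2 CPM subtracted, same-numbered samples at 12 h and 4 h correlated over genes at 0.34, 0.02 and 0.65 under lower copper. In controls the values were -0.08, 0.07 and 0.19. Over modules they were 0.36, 0 and 0.53 under lower copper, and 0.3, -0.02 and 0.27 in controls. Deviations of 3 libraries from their mean sum to 0, so these values are tied to one another. Over genes lower copper 12 h replicate 1 went best with 4 h replicate 2 (0.43), and over modules with 4 h replicate 1 (0.36). These values do not settle whether the numbers pair samples, and the main fit had no replicate block. With a replicate block 4 genes were called under lower copper (1 rise, OT_ostta12g02870, and 3 of the 4 falls) and 17 in controls. RLE scaling gave 3 and 10 genes, no filter 3 and 9, and the lost fall was OT_ostta06g01870. Depth limits genes of few reads such as OT_ostta02g04110.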
